A study of Oryza sativa Indica Group with 4 samples.

Results

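In seedling leaves of rice, 77 loci had at least 2.5 times more reads at 30 °C than at 25 °C in the togr1-1 mutant, while the same ratio in the wild type stayed within a window around 1. They were taken from 28458 loci with reads. Reads of all transcript models of a locus were summed, 1 read was added, and each sum was scaled by the total of its library. A locus was kept where each genotype had at least 100 reads over its pair of libraries, where the ratio of 30 °C over 25 °C in togr1-1 was at least 2.5, and where the same ratio in the wild type was at least 0.67 and stood for at most 25% more reads at 30 °C. Of the 13040 loci with enough reads, 77 met the whole rule, which is 0.59%. Because the rule used the reads of all 4 libraries, the ratios are given here as a description of these libraries and no test was made on them.

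TOGR1 encodes a DEAD-box RNA helicase, a member of a family of enzymes that remodel RNA structures with the energy of ATP. Helicases of this family are needed in the nucleolus, where ribosomal RNA precursors are cut and folded into the small and large ribosomal subunits. The togr1-1 mutant carries a recessive change in this gene and becomes dwarfed when grown warm. The libraries were made to see how a disturbance of ribosomal RNA processing bears on the leaf transcriptome.

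All plants were of the indica variety Zhongxian 3037. The wild type (WT) and the tog1 mutant, named togr1-1 here, were moved at 4 days of age to chambers at 25 °C or 30 °C with 12 h of light and 80% humidity, and were kept there for 18 days. At 22 days, blades of the fourth leaf were pooled to 100 mg per condition, and polyadenylated RNA of each pool gave 1 library. The libraries are called WT25, WT30, tog25 and tog30 after genotype and temperature, and reads are given in that order. The 4 libraries held between 11959859 and 12371522 counted reads. With 1 pool per condition there is no replicate check, and temperature, growth chamber and pool cannot be told apart. The same holds for genotype and pool. The mutant was represented by a single allele. In blades taken whole, fewer cells of one type and less RNA per cell cannot be told apart either. Intervals in brackets are 95% Clopper-Pearson intervals of the ratio of reads, and they cover counting error only.

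The deposited tables identify the loci by numbers alone, in which the digits after "Os" give the chromosome. No table used here paired these numbers with gene names or functions, so the 77 loci are described by identifier, level and pattern. The labelled leaf blade could not be checked against marker genes for the same reason.

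In togr1-1 the ratio of 30 °C over 25 °C among the 77 loci ran from 2.504 to 13.5, with a median of 3.08, against a median of 1.04 over the 13040 loci. In the wild type the same ratio ran from 0.730 to 1.249 with a median of 1.04, against 1.07 over the 13040 loci. The loci were crowded towards the limit of the rule: 34 lay between 2.5 and 3, 20 between 3 and 4, 15 between 4 and 6, and 8 at 6 or above. Of the 13040 loci, 407 (3.12%) reached 2.5 in togr1-1 and 379 (2.91%) did so in the wild type. The window of the wild type was wide enough to hold 7164 loci (54.9%). A ratio of at least 4 in togr1-1 was found for 132 loci (1.01%), of which 23 were among the 77.

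Most loci with a high ratio in togr1-1 had a wild-type ratio outside the window. Of the 407 loci, 151 reached 2.5 in the wild type too, 133 had a wild-type ratio above the window and under 2.5, 46 had one below the window, and the remaining 77 are the loci described here. The same rule with the genotypes exchanged found 43 loci. Under other scalings of the libraries the counts came closer, with 71 and 51 loci under TMM factors and 76 and 46 under DESeq2 size factors. No test was made of the difference between these counts.

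**Figure D1:**
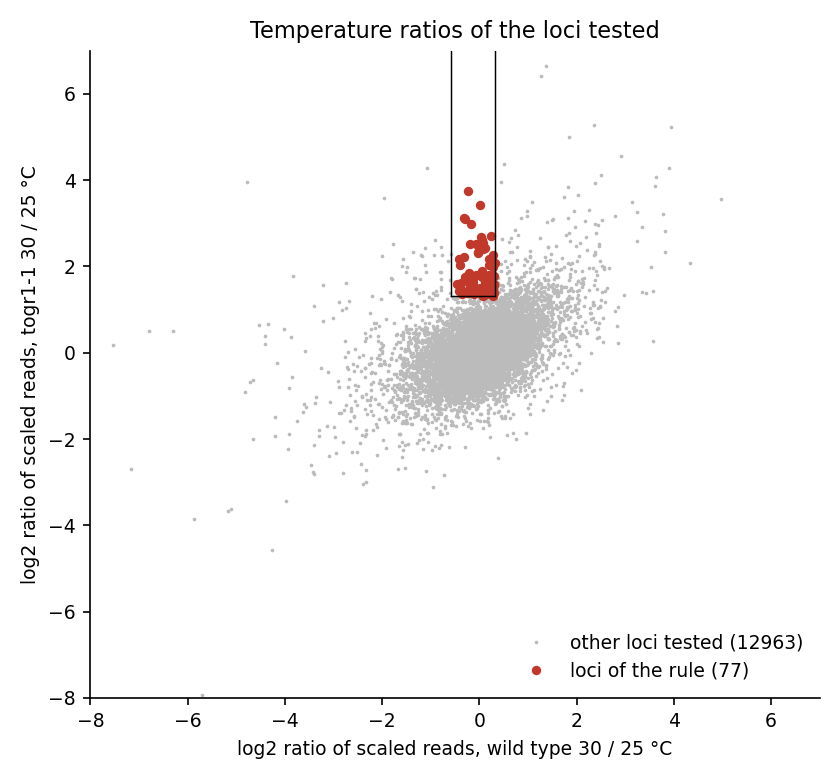
Each point is 1 of the 13040 loci, placed by the log2 ratio of scaled reads at 30 °C over 25 °C in the wild type (horizontal axis) and in togr1-1 (vertical axis). The open box marks the limits of the rule, and the 77 loci inside it (red) sit mostly near its lower edge, with the highest at a togr1-1 ratio of 13.5.

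The same temperature ratio in togr1-1 arose from different levels relative to the wild type. At 30 °C, 41 of the 77 loci had at least 2 times more reads in togr1-1 than in the wild type, against 504 of the 13040 loci (3.87%). At 25 °C, 24 of the 77 had at most 0.5 times the wild-type reads, against 462 of the 13040 (3.54%). These values are linked to the rule, since the ratio of the genotype ratios at 30 °C and 25 °C equals the ratio of the temperature ratios. The rule leaves free how much of the difference lies at each temperature, and the loci were divided on that basis.

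With these limits 34 loci were higher in togr1-1 at 30 °C only (3.44% of the 13040 loci belong to this class), 17 were lower in togr1-1 at 25 °C only (3.11%), 7 were both (0.429%) and 19 were neither (93.0%). The median togr1-1 over wild-type ratio of all 77 was 0.567 at 25 °C and 2.10 at 30 °C, against 0.974 and 0.926 over the 13040 loci. Neither ratio was uniform, with a range of 0.185 to 1.17 at 25 °C and of 0.631 to 6.43 at 30 °C. Of the 23 loci with a togr1-1 temperature ratio of at least 4, 21 were at least 2-fold higher than the wild type at 30 °C and 8 were at or below 0.5 times the wild type at 25 °C. Among the 54 loci under 4, these counts were 20 and 16. Both the split at 4 and the counts rest on the same linked ratios, so they are a description.

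**Figure D2:**
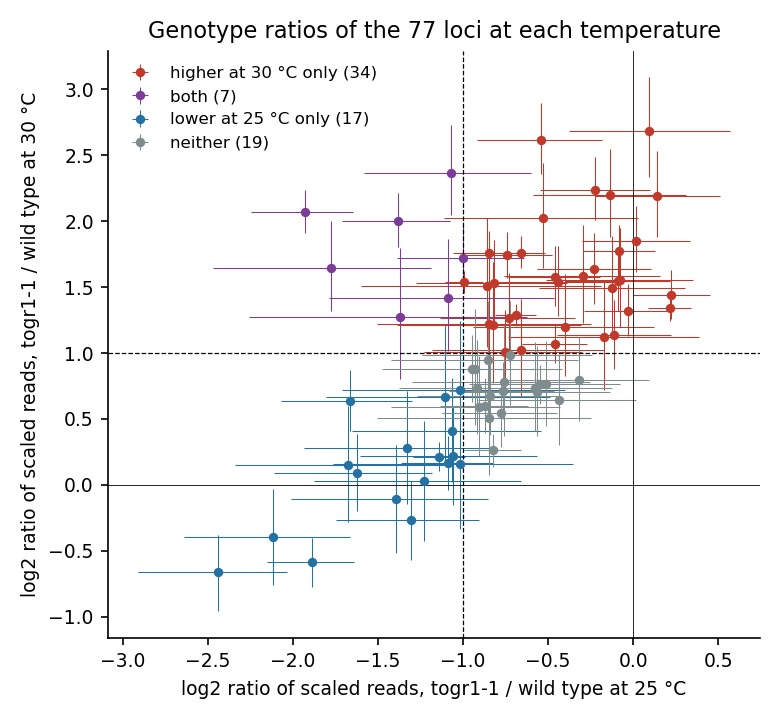
Each point is 1 of the 77 loci, placed by the log2 ratio of scaled reads in togr1-1 over the wild type at 25 °C (horizontal axis) and at 30 °C (vertical axis), with 95% counting intervals as bars. Dashed lines mark the 2-fold limits that divide the loci into 4 classes of 34, 7, 17 and 19, and the points form a band from the lower left to the upper right, whose distance from the diagonal the rule sets.

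The 7 loci of the class with both deviations had togr1-1 temperature ratios from 5.78 to 13.5, with a median of 8.56, the highest median of the 4 classes. LOC_Os03g08330, on chromosome 3, had 451 reads in WT25, 373 in WT30, 119 in tog25 and 1592 in tog30. The mutant thus held both the lowest and the highest of the 4 values, with the wild-type libraries between them. The temperature ratio of this locus was 13.5 in togr1-1 (11.3 to 16.6) and 0.845 in the wild type (0.735 to 0.971), and its ratio of togr1-1 over the wild type was 0.262 at 25 °C and 4.20 at 30 °C. It was the highest temperature ratio among the 77 loci.

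LOC_Os09g13440, with 303, 243, 117 and 990 reads in the 4 libraries, had a togr1-1 ratio of 8.56 (7.11 to 10.5) and a wild-type ratio of 0.820 (0.689 to 0.973). For LOC_Os02g43790 the reads were 97, 96, 28 and 307, and the togr1-1 ratio was 10.8 (7.58 to 17.1). The wild-type libraries of this locus differed by 1 read, while the mutant libraries lay on either side of them. Median levels of the class, in RPKM (reads scaled by transcript length and library total, summed over the models of a locus), were 6.09 in WT25, 6.16 in WT30, 1.77 in tog25 and 19.4 in tog30.

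The 34 loci that were higher at 30 °C only had a median togr1-1 over wild-type ratio of 2.90 at 30 °C and of 0.747 at 25 °C. The name of the class refers to the 2-fold limits. Many of its loci were also lower in togr1-1 at 25 °C beyond counting error, by less than those limits. Their median levels were 8.02 RPKM in WT25, 7.46 in WT30, 6.56 in tog25 and 34.7 in tog30. The first 3 medians were close together and that of tog30 stood well above them. It also contained the 2 loci with the most reads of all 77.

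LOC_Os03g18150 had 1971 reads in WT25, 1549 in WT30, 1003 in tog25 and 4565 in tog30. The temperature ratio was 4.63 in togr1-1 (4.33 to 4.97) and 0.803 in the wild type (0.751 to 0.859). At 25 °C the mutant had 0.503 times the wild-type reads (0.465 to 0.543), so this locus lay at the border of the class with both deviations. LOC_Os01g40070 moved the same way in both genotypes but by unequal amounts, with 1455 and 1730 reads in the wild type and 913 and 4292 in togr1-1, which gave ratios of 1.21 (1.13 to 1.30) and 4.79 (4.46 to 5.15).

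The largest temperature ratios of this class belonged to LOC_Os01g74040 and LOC_Os11g44380. The first had 153 and 133 reads in the wild type and 106 and 831 in togr1-1, a togr1-1 ratio of 7.92 (6.52 to 9.87). In LOC_Os11g44380 the reads were 308 and 354 in the wild type and 186 and 1204 in togr1-1, a togr1-1 ratio of 6.57 (5.65 to 7.74). Both loci were lower in togr1-1 at 25 °C beyond counting error, with ratios to the wild type of 0.686 (0.529 to 0.882) and 0.598 (0.494 to 0.718), and higher at 30 °C, with 6.12 (5.12 to 7.45) and 3.34 (2.97 to 3.78).

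A clean case of a single high library was LOC_Os01g64470, chosen after its values were seen because it had the highest genotype ratio at 30 °C. It had 74 reads in WT25, 69 in WT30, 80 in tog25 and 456 in tog30. The genotypes did not differ beyond counting error at 25 °C, with a ratio of 1.07 (0.768 to 1.48), and at 30 °C the ratio was 6.43 (5.05 to 8.51). LOC_Os05g41780, also chosen after its values were seen, was the 1 locus of the 77 whose interval at 25 °C lay above 1, with 952 and 1137 reads in the wild type and 1119 and 2920 in togr1-1, and a ratio of 1.16 (1.06 to 1.27) at 25 °C.

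The 17 loci that were lower at 25 °C only showed another pattern. Their median togr1-1 over wild-type ratio was 0.404 at 25 °C and 1.12 at 30 °C, so that the togr1-1 level at 30 °C was near the wild-type level at either temperature. Median levels were 4.62 RPKM in WT25, 4.84 in WT30, 1.51 in tog25 and 4.78 in tog30. By these medians the library that stood apart was the mutant at 25 °C. Single loci of the class also differed from the wild type at 30 °C beyond counting error, some above it and some below. The ratio of 30 °C over 25 °C does not by itself describe a level above the wild type.

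LOC_Os02g01280 had the most reads of this class, with 1117 and 1214 in the wild type and 512 and 1429 in togr1-1. Its togr1-1 ratio was 2.84 (2.57 to 3.15), and the mutant had 0.453 times the wild-type reads at 25 °C and 1.16 times at 30 °C (1.07 to 1.253). LOC_Os10g25290 had the largest ratio of the class, 5.36 (4.23 to 7.03), from 237 and 252 reads in the wild type and 75 and 399 in togr1-1. Here the mutant was well below the wild type at 25 °C, at 0.315 times (0.238 to 0.407), and above it at 30 °C, at 1.56 times (1.33 to 1.83). LOC_Os04g40720, with 163 and 193 reads in the wild type and 53 and 209 in togr1-1, had a ratio to the wild type of 1.07 (0.873 to 1.30) at 30 °C, which did not differ from 1 beyond counting error.

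At 3 loci of this class togr1-1 stayed below the wild type at both temperatures beyond counting error. LOC_Os06g43090 had 602 and 608 reads in the wild type and 164 and 411 in togr1-1, and the mutant had 0.270 times the wild-type reads at 25 °C (0.225 to 0.320) and 0.667 times at 30 °C (0.586 to 0.756). Its togr1-1 temperature ratio of 2.54 was 2.41 under TMM factors and 2.45 under DESeq2 size factors, both below the limit of the rule. The other such loci, LOC_Os09g26920 and LOC_Os02g03000, were named after their values were seen. LOC_Os09g26920 had 288 and 258 reads in the wild type and 53 and 165 in togr1-1, the lowest genotype ratio of the 77 at 25 °C, 0.185 (0.133 to 0.244), and 0.631 (0.515 to 0.769) at 30 °C. The reads of LOC_Os02g03000 were 196, 149, 45 and 115, and its ratio at 30 °C was 0.762 (0.591 to 0.976).

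The 19 remaining loci passed neither 2-fold limit, and the difference between the genotypes was divided between the temperatures, with a median ratio of 0.583 at 25 °C and 1.66 at 30 °C. Here the median RPKM was 5.13 in WT25, 6.16 in WT30, 2.78 in tog25 and 8.99 in tog30. LOC_Os01g45990, with 810 and 955 reads in the wild type and 462 and 1162 in togr1-1, had a togr1-1 ratio of 2.56 (2.30 to 2.86) and a wild-type ratio of 1.20 (1.10 to 1.32). In LOC_Os05g01940, the wild-type libraries held 593 and 608 reads and the togr1-1 libraries 410 and 1047, a ratio of 2.60 (2.32 to 2.92). Under TMM factors both loci fell short of the rule, with 2.43 and 2.46, and LOC_Os01g45990 also did so under DESeq2 size factors, with 2.47.

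In both loci the wild-type values lay between those of the mutant. The limits of the rule and of this class require that order in every locus of the class. The largest togr1-1 ratios of the class were those of LOC_Os08g34790 and LOC_Os01g38980. The former had 174 and 196 reads in the wild type and 91 and 366 in togr1-1, a ratio of 4.07 (3.25 to 5.22), with the mutant at 0.519 times the wild type at 25 °C and 1.84 times at 30 °C. The latter had 236 and 284 reads in the wild type and 140 and 473 in togr1-1, a ratio of 3.43 (2.85 to 4.19) against 1.23 (1.03 to 1.47) in the wild type.

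**Figure D3:**
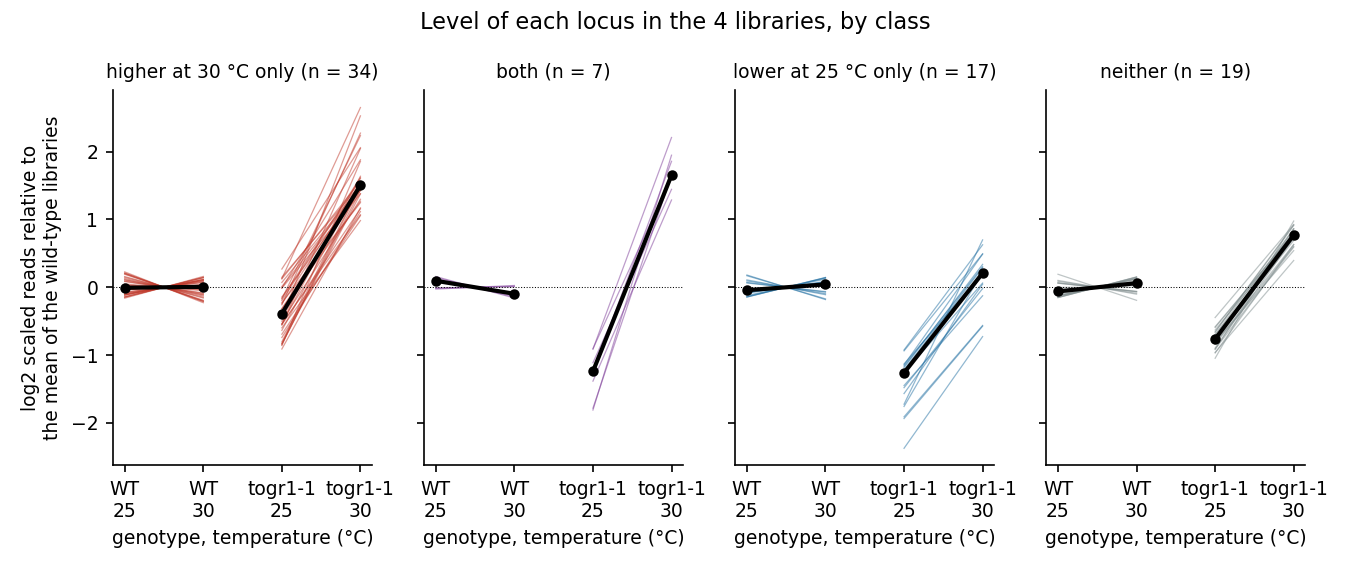
Each thin line is 1 locus, drawn as the log2 of its scaled reads in the 4 libraries relative to the mean of its wild-type libraries, in 4 panels by class; the black points and lines are the medians. The wild-type points stay near 0 in every panel. By the medians, togr1-1 departs mainly upwards at 30 °C in the class of 34 and mainly downwards at 25 °C in the class of 17. It departs in both directions in the classes of 7 and 19, as the limits of the rule and of the classes require.

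Over all 77 loci, togr1-1 at 30 °C was the highest of the 4 libraries in 71 (18.8% of the 13040 loci), togr1-1 at 25 °C was the lowest in 69 (32.7%), and both held in 63 (7.32%). The rule favours this order, so these counts are a description. The limits of the rule and of the classes also fix which class any exception can belong to. The 8 loci in which togr1-1 at 25 °C was not the lowest were all in the class that was higher at 30 °C only. The 6 loci in which togr1-1 at 30 °C was not the highest were all in the class that was lower at 25 °C only. Counting intervals placed togr1-1 above the wild type at 30 °C in 65 loci (19.7% of the 13040), below it in 3 (36.6%) and on neither side in 9 (43.7%). At 25 °C they placed togr1-1 below the wild type in 57 loci (31.1%), above it in 1 (24.4%) and on neither side in 19 (44.5%).

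**Figure D4:**
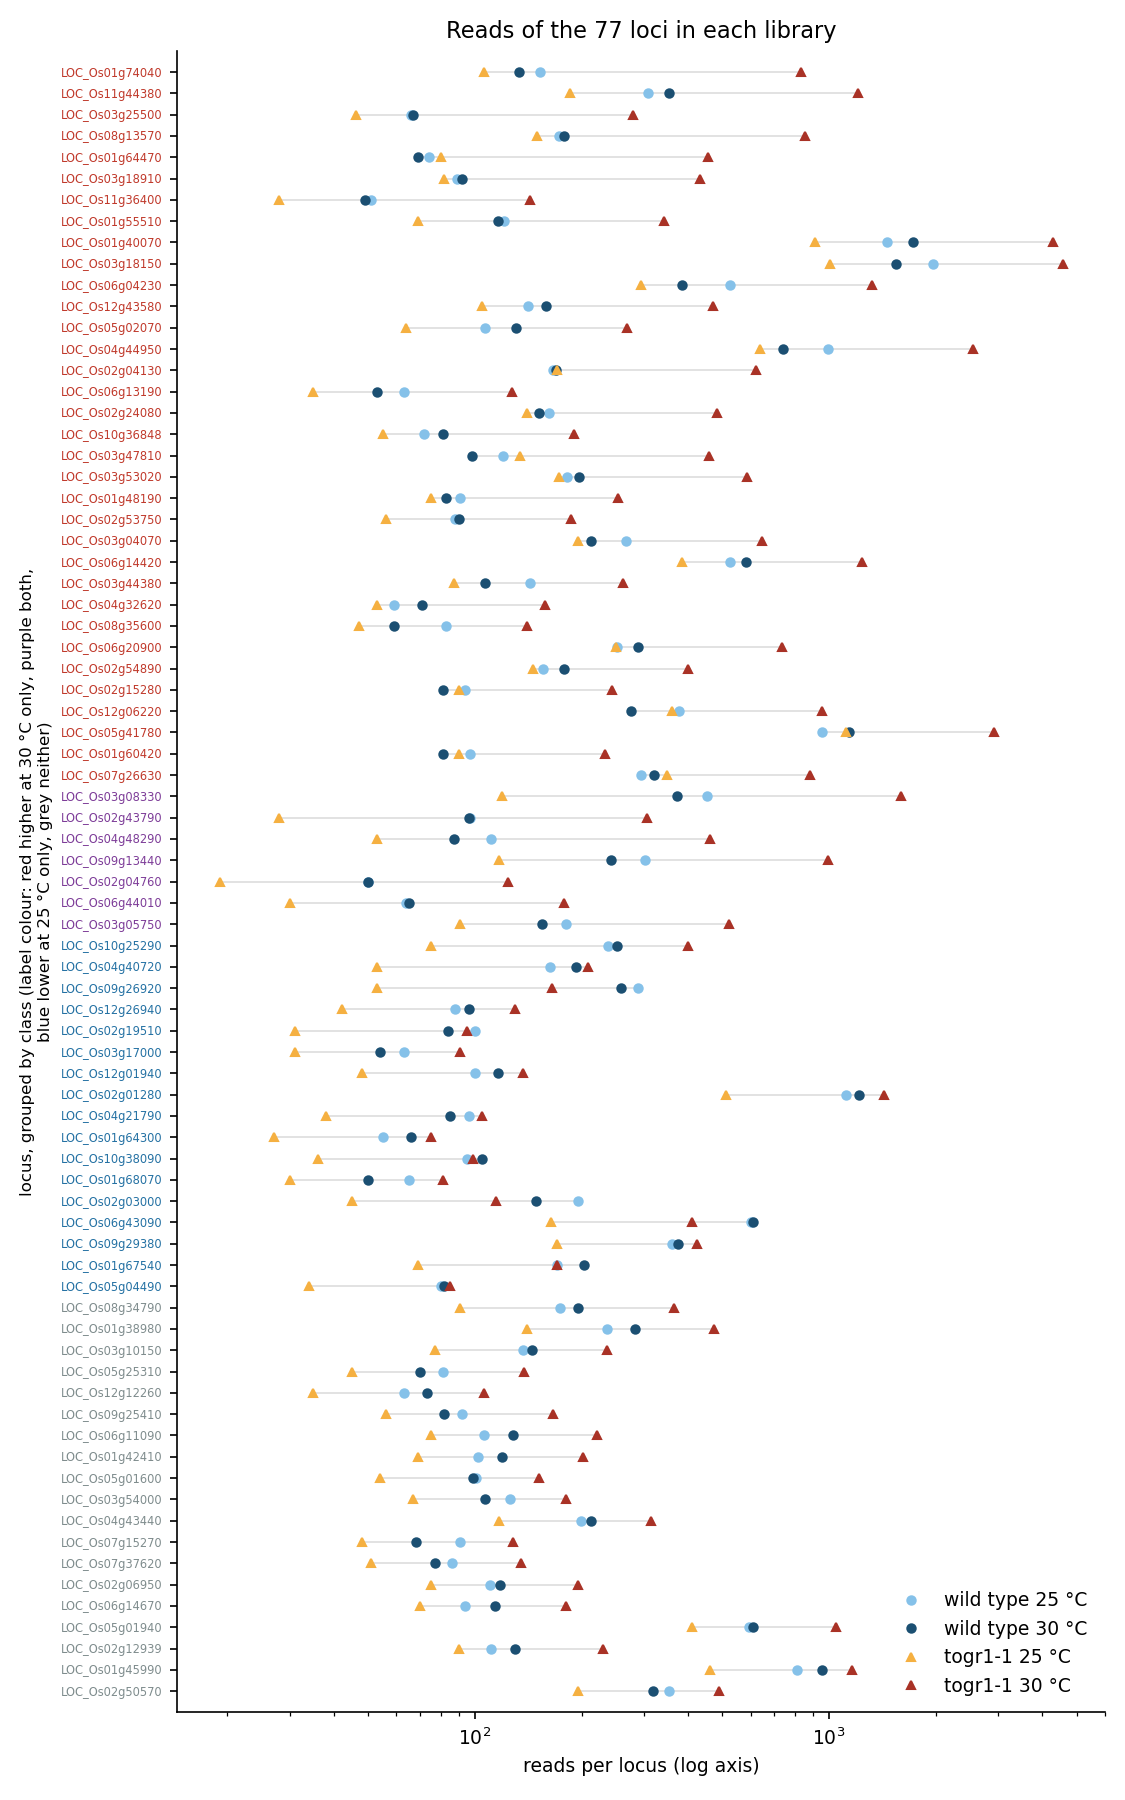
Reads of each of the 77 loci in the 4 libraries (log axis), with circles for the wild type and triangles for togr1-1, light for 25 °C and dark for 30 °C; loci are grouped by class, as the label colours show, and ordered by togr1-1 temperature ratio within a class. The dark triangle is the rightmost symbol in 71 rows and the light triangle the leftmost in 69 when the reads are scaled by library totals.

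Within its window the wild type was not always level. The counting interval of its temperature ratio held 1 in 61 of the 77 loci (34.9% of the 13040), lay below 1 in 9 (26.2%) and above 1 in 7 (38.9%). Of the 9 loci in which the wild type had fewer reads at 30 °C, 6 were higher in togr1-1 at 30 °C only, 2 were in the class with both deviations and 1 was lower at 25 °C only. In 16 loci the wild type thus moved beyond counting error, although by less than the limits of the rule. The window of the rule keeps the wild-type ratios near 1 and few reads widen the intervals, so these counts are a description. They also rest on scaling by library totals. TMM factors and DESeq2 size factors shift every wild-type ratio by -0.081 and -0.086 on the log2 scale. Some intervals above 1 came as close to it as 1.005, and the counts were not repeated under those scalings. The interval of togr1-1 lay wholly above that of the wild type in all 77 loci, against 2310 of the 13040 (17.7%), a count that rests on the ratios the rule used.

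The limit of 2.5 did not separate the loci sharply from others. The togr1-1 interval lay wholly at or above 2.5 in 37 of the 77 loci (1.69% of the 13040) and reached below it in 40. Another 118 loci inside the wild-type window had a point ratio under 2.5 and an interval that reached it, and 78 had a point ratio between 2 and 2.5. Just inside the limit lay LOC_Os01g67540, with 170, 203, 69 and 171 reads, and LOC_Os05g04490, with 80, 82, 34 and 85 reads, both at 2.504. Just outside lay LOC_Os01g62760 at 2.49 (2.33 to 2.66), with 2661, 3203, 1259 and 3078 reads, and LOC_Os07g35290 at 2.48 (1.97 to 3.19), with 146, 106, 98 and 240 reads.

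At the upper limit of the wild-type window, LOC_Os05g02070 and LOC_Os06g14670 were kept with wild-type ratios of 1.249 and 1.24, and LOC_Os08g41440 and LOC_Os09g28000 were left out with 1.251 and 1.253. The togr1-1 ratios of the latter pair were 2.56 and 2.60. At the lower limit the nearest loci kept were LOC_Os08g35600 at 0.730 and LOC_Os12g06220 at 0.748. Those left out were LOC_Os01g03310 at 0.6699, whose togr1-1 ratio was 4.92, and LOC_Os04g57200 at 0.660, whose togr1-1 ratio was 3.20. At the first 2 limits the loci kept and left out lay side by side, and at the lower wild-type limit a gap from 0.6699 to 0.730 held no locus past 2.5 in togr1-1.

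Together the 77 loci took 19267 reads in WT25, 19028 in WT30, 11916 in tog25 and 44243 in tog30. As shares of each library these were 0.158% (0.155% to 0.160%), 0.159% (0.157% to 0.161%), 0.0963% (0.0946% to 0.0981%) and 0.364% (0.361% to 0.368%). The ratio of summed reads at 30 °C over 25 °C was 1.01 in the wild type and 3.78 in togr1-1, as the choice of the loci fixes in direction. Leaving out the 5 loci with the most reads, which took 33.5% to 35.6% of the reads, changed these ratios to 1.01 and 3.76.

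Most of the 77 were expressed at low levels. The median over the 77 loci was 613 reads in the 4 libraries, from 223 to 9088, against 1230 over the 13040 loci, and 24 of the 77 had at least 1000 reads (56.4% of the 13040). In RPKM the medians were 6.03, 6.19, 3.75 and 12.8 in the 4 libraries, against 14.3, 15.0, 13.6 and 14.4 over the 13040 loci. A locus with few reads varies more by counting, and the part of this in the choice of the loci was not tested.

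Transcript length, which the rule did not use, was like that of other loci over the whole set and differed between the classes. The median of the longest model was 1823 bases over the 77 loci and 1837 over the 13040. In the class higher at 30 °C only it was 1490 bases, with 17 of 34 loci (50%) under 1500 and 5 (14.7%) over 2500, where the 13040 loci had 34.0% and 26.2%, and in the class with both deviations it was 1304, with 4 of 7 (57.1%) under 1500. In the class lower at 25 °C only the median was 2061 bases, with 5 of 17 (29.4%) under 1500 and 7 (41.2%) over 2500. In the class with neither it was 2644, with 2 of 19 (10.5%) under 1500 and 10 (52.6%) over 2500.

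Length also moved with the ratios of all loci. For loci under 1500 bases, from 1500 to 2500 and over 2500, the median temperature ratio was 0.977, 1.07 and 1.20 in the wild type and 0.941, 1.04 and 1.16 in togr1-1. The median togr1-1 over wild-type ratio at 30 °C hardly differed with length over these loci, at 0.927, 0.931 and 0.919, while among the 77 it was 2.80, 2.24 and 1.66. Over all loci, too, a genotype ratio of at least 2 at 30 °C was found more often in short loci, at 4.74%, 4.05% and 2.45%, and the counts among the 77 were 21 of 28, 14 of 26 and 6 of 23. A ratio of at most 0.5 at 25 °C was also found more often in short loci, at 4.54%, 3.37% and 2.51%, and the counts among the 77 were 9 of 28, 7 of 26 and 8 of 23. With temperature ratios adjusted for length, an alternative chosen after the data had been seen, the rule found 78 loci, 61 of them shared with the 77.

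**Figure D5:**
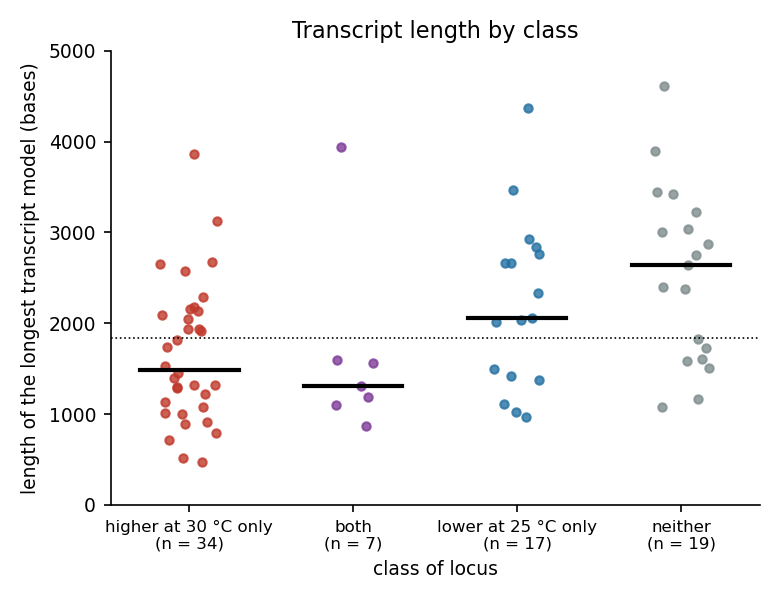
Length of the longest transcript model of each of the 77 loci, in bases, by class; points are loci, bars are class medians and the dotted line is the median of the 13040 loci, 1837 bases. Loci higher in togr1-1 at 30 °C sit mostly below the dotted line, with medians of 1490 and 1304 bases, and those of the class with neither mostly above it, with a median of 2644.

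The rule summed the models of a locus and did not use the split of reads among them. More than 1 model was counted for 16 of the 77 loci, a share near the background (20.7% of the 13040), and these 16 loci had 37 models. In 10 of them a main model took at least 90% of the reads. In togr1-1, the median of the largest change in share between temperatures was 4.38 percentage points.

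At 3 loci the share of a model changed by at least 20 points between the temperatures in togr1-1. The longer model of LOC_Os02g53750, of 3121 bases, had 37, 38, 19 and 121 reads, and its share of the locus was 42.0% (31.6% to 53.1%), 42.2% (31.9% to 53.1%), 33.9% (21.8% to 47.8%) and 64.7% (57.4% to 71.5%). The shorter model, of 1884 bases, had 51, 52, 37 and 66 reads, so the longer one supplied most of the excess in togr1-1 at 30 °C. LOC_Os12g12260 showed a like shift on fewer reads, its model of 3221 bases having 12, 11, 10 and 52 reads and shares of 19.0%, 15.1%, 28.6% and 49.1%, although the togr1-1 intervals of 14.6% to 46.3% and 39.2% to 59.0% overlapped.

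In LOC_Os03g17000 the shares differed between the temperatures in both genotypes, in opposite directions. A model of 2490 bases had 34.9% of the reads in WT25, 55.6% in WT30, 67.7% in tog25 and 47.3% in tog30. These shares rested on 22, 30, 21 and 43 reads. Their intervals overlapped between the temperatures in each genotype.

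The 77 loci were spread over all 12 chromosomes, from 2 loci on chromosome 11 to 13 on chromosome 2, or 0.299% of the loci with enough reads on chromosome 7 to 0.821% on chromosome 2. No pair of them was adjacent in the order of locus numbers among the loci with enough reads. The closest were LOC_Os05g01940 and LOC_Os05g02070, 130 locus numbers apart. The 154 loci next to them in that order had a median togr1-1 temperature ratio of 1.12, against 1.04 over the 13040 loci, and 11 of them (7.14%) reached 2.5, against 3.12% of the 13040.

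The 43 loci found with the genotypes exchanged had a median wild-type temperature ratio of 2.99. Their median togr1-1 over wild-type ratio was 1.60 at 25 °C and 0.526 at 30 °C. By the medians, the responding genotype of each set was thus the lower one at 25 °C and the higher one at 30 °C. Single loci of both sets departed from this order. Both rules compare the same 4 libraries, which fixes this order in part, and the sets share no locus by construction. A ratio at or below the inverse limit in togr1-1, with the wild type in the inverse window, was found for 31 loci.

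None of the 4 loci that the study names was among the 77, a set that holds 0.59% of the 13040 loci. TOGR1 itself, LOC_Os03g46610, had 175 and 180 reads in the wild type and 127 and 156 in togr1-1, and temperature ratios of 1.05 (0.849 to 1.30) and 1.3 (0.98 to 1.6). The togr1-1 allele changes the protein sequence, so the reads of the gene do not check the genotype labels. LOC_Os07g49400, a homologue of the ascorbate peroxidase gene APX2, whose product removes hydrogen peroxide, had 255 and 199 reads in the wild type and 336 and 164 in togr1-1, and a togr1-1 ratio of 0.499 (0.410 to 0.601).

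The homologues of GolS2, which encodes a galactinol synthase acting early in raffinose synthesis, were not alike. LOC_Os03g20120 had 380 and 152 reads in the wild type and 615 and 279 in togr1-1, with temperature ratios of 0.410 (0.336 to 0.494) and 0.463 (0.40 to 0.533). LOC_Os07g48830 had 101 and 174 reads in the wild type and 110 and 95 in togr1-1, with ratios of 1.75 (1.37 to 2.27) and 0.881 (0.662 to 1.17). The last interval held 1, so that the togr1-1 libraries of this locus did not differ beyond counting error.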

How the data were processed

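RNA of pooled leaf blades was sequenced on an Illumina HiSeq instrument, with 1 library per condition and 4 libraries in all. The deposited counts are raw whole numbers of reads, which the authors assigned to 35204 transcript models. They also deposited RPKM values, in which counts are divided by transcript length and by the library total. Recalculation from the deposited counts and lengths gave the deposited RPKM to within 4.91e-06%. Aligner, counting tool, genome build and annotation release are not given in the sources used here, nor is it stated how reads shared by similar, overlapping or antisense genes were assigned. The tables also hold the authors' log2 ratios, p-values and false discovery rates, which were not used.

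Counts were summed into 28458 loci and scaled by library totals of 11959859 to 12371522 reads, with 1 read added for point ratios, and a model listed for a single genotype was given 0 reads in the other. Loci and lists were chosen with earlier results of these data known. Intervals are 95% Clopper-Pearson intervals on raw reads, and cover counting error only, since reads are not independent molecules after PCR. With 1 library per group no p-value was calculated. The text names, in each class by genotype ratio, the 2 loci with the most reads and the 2 with the largest togr1-1 ratio, the loci next to each limit, up to 3 with the largest shift in model use, and the 4 loci named by the study. Loci named outside this rule are marked as chosen after their values were seen. Of the 28458 identifiers, 0 were found in RefSeq's gene list for assembly ASM3414082v1. Counts by annotation and a check of leaf markers were therefore left out.

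Alternatives were TMM factors (edgeR 4.0.16), DESeq2 1.42.0 size factors (R 4.3.3), other added reads, minimums, fold limits and windows, and single models. Selection and intervals were tested on simulated data (Python 3.11.15, numpy 2.4.6, scipy 1.17.1, pandas 2.3.3), and plots were drawn with matplotlib 3.10.9. The simulated reads carried counting error only. Rises were planted in tog30 alone, at loci with at least 200 expected reads per genotype. Selection through a low tog25, or of loci nearer the minimum of reads, was thus not covered.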

Additional observations from a re-analysis of the deposited data

How the results depend on the processing

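The number of loci depended on the limits of the rule. It was 126 with a minimum of 50 reads, 46 with 200 and 1055 with none, and 155 with a 2-fold and 23 with a 4-fold limit in togr1-1. It stayed between 69 and 78 under other scalings, other added reads and a narrower wild-type window. Applied to single models, the rule found 79 models, and 74 of the 77 loci were among their loci. The loci were not all the same: 65 of the 77 were kept under TMM factors and 68 under DESeq2 size factors. With alternatives chosen after seeing the data, 57 loci (37 of the 77) had a togr1-1 interval wholly at or above 2.5 and a wild-type interval overlapping the window, and 58 of the 77 had a wild-type ratio of at least 0.8 and an interval holding 1.

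The median togr1-1 ratio of the 77 was 2.92 under TMM factors and 2.97 under DESeq2 size factors, and the median wild-type ratio moved from 1.04 to 0.981 and 0.977. These scalings moved the temperature ratios of all loci by less than 0.1 on the log2 scale, and the ratios of the loci named in the classes stayed within their counting intervals, although the togr1-1 ratios of LOC_Os01g45990, LOC_Os06g43090 and, under TMM factors alone, LOC_Os05g01940 went below 2.5. With a class limit of 1.5-fold, 32 loci had both deviations and 0 neither. Counts of loci by counting interval were made under scaling by library totals alone. No paired analysis was possible because each condition had 1 library, and for the same reason no library could be left out. Loci near the minimum of 100 reads carry wide intervals, so ratios near a limit are not told apart from it at this depth.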
